A study of Caenorhabditis elegans with 8 samples.

Results

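The metallothionein genes mtl-1 and mtl-2 and the cadmium-responsive genes cdr-1 to cdr-7 of Caenorhabditis elegans were examined for recruitment of endogenous DAF-16. They are 9 genes, found by symbol among the genes to which the peaks of 2 lists were assigned. The daf-2(-) list held 4 peaks at these genes among 6859, and the WT list held 3 among 5396. The symbols mtl-2, cdr-1, cdr-3, cdr-5 and cdr-7 stood in neither list.

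The series mapped DAF-16, the FOXO transcription factor of the worm, by ChIP-seq with an antibody raised against the protein in mixed-stage cultures grown at 20 °C. The strains were daf-2(-), in which the e1370 mutation of the insulin receptor gene lowers insulin signalling, the double mutant daf-16(-);daf-2(-), which adds the mgDf50 allele of daf-16, the strain daf-16(-) with mgDf50, and wild type (WT, N2). None of them carried a DAF-16 transgene, and all were whole animals, so tissues and stages cannot be told apart. Each strain had 1 ChIP and 1 input library, 8 in all, made from pooled chromatin. No difference between strains could therefore be set against a spread between replicates, and no p-value is given. Intervals cover counting error only.

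The values compared are those of the daf-2(-) and WT lists. According to the study's index of its datasets, peaks shared with daf-16(-);daf-2(-) were left out of the daf-2(-) list, and peaks shared with daf-16(-) were left out of the WT list. The study describes hardly any peak in daf-16(-);daf-2(-), so this step could touch hardly any daf-2(-) peak. Whether it took a WT peak at a gene without a WT row was not analysed here. The median summit height over all peaks was 56 tags in daf-2(-) and 90 in WT. The number of tags inside peaks summed to 1051563 in daf-2(-) and 1315194 in WT. Total reads per library were not used, so heights of both strains are placed side by side without a common scale.

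Metallothioneins are small cysteine-rich proteins that bind metal ions such as zinc, copper and cadmium. In the worm both genes are induced by cadmium in the intestine, and mtl-1 is widely used as a readout of DAF-16 activity. The cdr genes encode a family with homology to glutathione S-transferases. Its founding member cdr-1, which encodes a lysosomal membrane protein of the intestine, is strongly induced by cadmium. DAF-16 is largely kept out of the nucleus when insulin signalling is high, and more of it enters to bind promoters when the DAF-2 receptor is impaired. The study proposes that some DAF-16 may remain in the nucleus in WT.

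The study amplified the mtl-1 promoter from immunoprecipitated chromatin with its own primer pair. The pair is shown because mtl-1 had the tallest peak among the 9 genes in both strains. The primers are printed 5′ to 3′ in lower case, with no part marked, and they belong to chromosome V through their gene. Where they fall within the peak was not determined here.
mtl-1 forward primer: gacagggccaccctctttta
mtl-1 reverse primer: gccttcttctttttctcactgcc

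DAF-16 peaks were found at mtl-1, cdr-4, cdr-6 and cdr-2 in daf-2(-), and at mtl-1, cdr-4 and cdr-6 in WT. Over all 19983 protein-coding genes of the RefSeq table, 18.0% had a peak in daf-2(-) and 15.0% had a peak in WT. The 9 genes thus had 4 with a peak in daf-2(-) and 3 in WT, counts too small to be read as a property of the group. The 3 genes with a peak in both strains compare with 13.0% of protein-coding genes, and cdr-2, with a peak in daf-2(-) and none in WT, belongs to a class that makes up 5.01%. No gene had more than 1 peak in a list, and 1 peak was also the count at 84% of all genes with a peak in daf-2(-) and at 87.6% of those in WT.

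**Figure D1:**
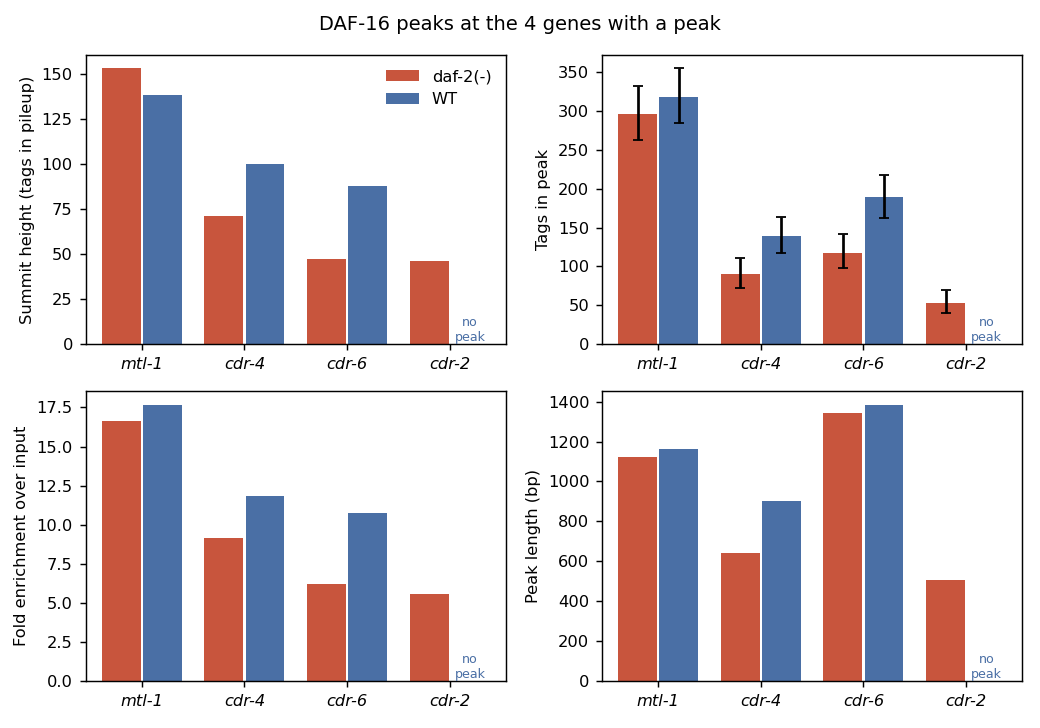
Summit height in tags, tags per peak, fold enrichment over input and peak length in bp at the 4 genes with a peak, with daf-2(-) in red left of WT in blue, 1 ChIP library each. Error bars on tags are exact Poisson 95% intervals. The mtl-1 peak was the tallest in both strains, with a height of 153 in daf-2(-) and 138 in WT, and cdr-2 had no WT peak.

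The metallothionein genes differed from each other. The mtl-1 peak (WBGene00003473) lay at chrV:6691378-6692502 in daf-2(-), a length of 1125 bp, and at chrV:6691363-6692525 in WT, a length of 1163 bp, in the WS230 build. It covered 486 bp of the 495 bp gene model in daf-2(-) and all 495 bp in WT, as well as the region before the transcription start site (TSS). The summit, the highest point of the pileup, lay 46 bp upstream of the TSS in daf-2(-) and 28 bp upstream in WT, close to the start of the gene in both strains. The interval held 296 tags in daf-2(-) (95% interval 263 to 332) and 318 in WT (284 to 355).

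The summit of mtl-1 was 153 tags high in daf-2(-), rank 473 of 6859 peaks, and 138 tags high in WT, rank 1166 of 5396. That is percentile 93.0 of heights in daf-2(-) and percentile 78.2 in WT. Fold enrichment, the height over the local background estimated from input, was 16.6 in daf-2(-) and 17.7 in WT. The FDR of the peak was listed as 0% in daf-2(-) and 0.25% in WT. The nearest other peaks on the chromosome were 7252 and 5168 bp away in daf-2(-) and 14528 and 5111 bp away in WT. On the side before the TSS the nearest belonged to the gene W02F12.10 in both strains.

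At mtl-2, the other metallothionein gene, neither list had a peak. Among the 3 RefSeq genes on each side of mtl-2, only aip-1 had a listed peak, in daf-2(-), and a WT peak at the same place was assigned to F58E10.3. It is the third gene away, and a pair of genes, srh-308 and end-3, stand between it and mtl-2. None of the 3 genes on the other side had a peak in either strain. Thus of the metallothionein pair, mtl-1 had a peak in both strains and mtl-2 in neither.

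The founding member cdr-1 also had no peak in either strain. None of the 3 RefSeq genes on either side of it had a peak in either list. The genes next to it are F35E8.19 and nhr-108, which encodes a nuclear hormone receptor.

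Most of the cdr family is clustered on chromosome V. In RefSeq gene order cdr-4, hrg-2, cdr-7, cdr-6, cdr-2 and cdr-3 follow each other with no other gene between them, and the table has no entry named cdr-5. Whether hrg-2 is the gene listed here as cdr-5 was not settled, and neither name stood in a peak list. The cluster carried 3 peaks in daf-2(-) and 2 in WT, and they were assigned to the cdr-4, cdr-6 and cdr-2 promoters. No row of either list was assigned to cdr-7, cdr-3 or hrg-2. The 4 genes with a peak were all on the minus strand, and their peaks were centred upstream of the TSS in both strains, as was the case for 67.2% of all peaks in daf-2(-) and 65.3% in WT.

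**Figure D2:**
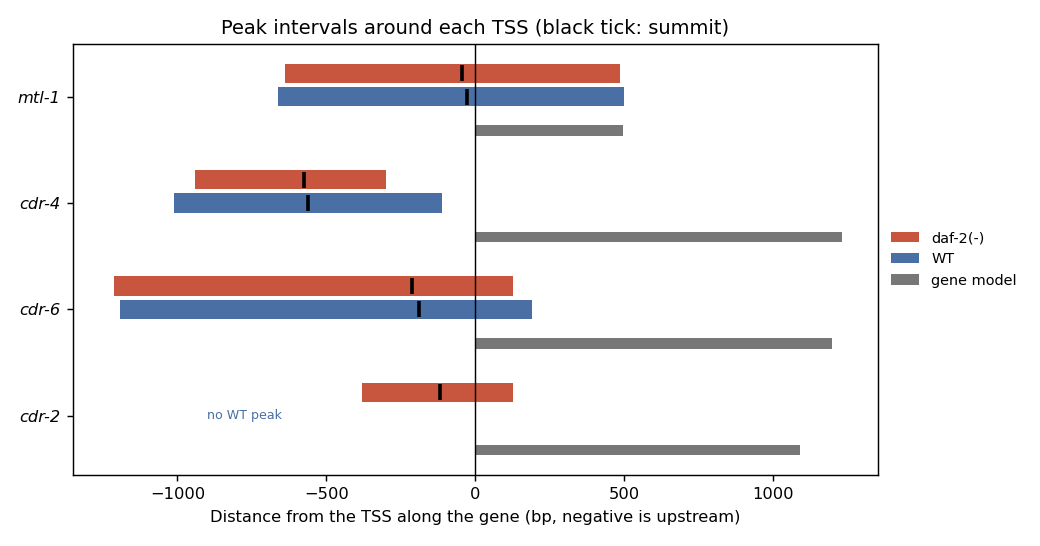
Peak intervals in bp relative to the TSS, with the gene running to the right, for daf-2(-) in red above WT in blue, 1 library each, black ticks for summits and grey bars for gene models. The mtl-1 interval covers 486 of 495 bp of the gene model in daf-2(-) and all of it in WT, the cdr-4 interval stops before the TSS, and the cdr-6 summit sits nearer the TSS than the middle of its interval.

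At cdr-4 (WBGene00010470, gene model 12407364 to 12408592), the peak lay at chrV:12408892-12409534 in daf-2(-) and at chrV:12408703-12409604 in WT. It was the most distant of these peaks from its gene, with a summit 576 bp upstream of the TSS in daf-2(-) and 561 bp upstream in WT, and it touched no base of the gene model. The daf-2(-) peak was 643 bp long and lay wholly inside the WT peak of 902 bp. It held 90 tags in daf-2(-) (95% interval 72.4 to 111) and 139 in WT (117 to 164). The height was 71 in daf-2(-) and 100 in WT, with a fold enrichment of 9.13 in daf-2(-) and 11.9 in WT. Both heights stood above the middle of their list, at percentile 65.6 in daf-2(-) and percentile 57.9 in WT.

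The cdr-4 peak bordered a long stretch without peaks. On the far side, away from cdr-6, the nearest peak was 74036 bp away in daf-2(-), at R04F11.8, and 53785 bp away in WT, at sqt-3, a cuticle collagen gene. The median gap between neighbouring peaks on chromosome V was 7448 bp in daf-2(-) and 8986 bp in WT, and the gap at cdr-4 stood at percentile 95.8 of gaps in daf-2(-) and 88.0 in WT. Toward cdr-6 the next peak began 4036 bp away in daf-2(-) and 3904 bp away in WT.

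The cdr-6 peak (WBGene00010471, gene model 12412501 to 12413698) was the longest at these genes. It lay at chrV:12413571-12414912 in daf-2(-), 1342 bp, and at chrV:12413509-12414891 in WT, 1383 bp. These lengths were at percentile 88.5 of the daf-2(-) list and percentile 80 of the WT list. The peak held 118 tags in daf-2(-) (95% interval 97.7 to 141) and 189 in WT (163 to 218). The height was 47 in daf-2(-) and 88 in WT, and the fold enrichment was 6.19 in daf-2(-) and 10.7 in WT. A long interval of modest height thus described cdr-6 in both strains, and its height stood at percentile 36.1 in daf-2(-) and percentile 47.8 in WT.

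The shape of the cdr-6 peak was uneven. Its summit lay 214 bp upstream of the cdr-6 TSS in daf-2(-) and 189 bp upstream in WT, while the centre of the interval lay 543 bp upstream in daf-2(-) and 502 bp upstream in WT. The summit stood 25.4% of the way along the interval in daf-2(-) and 27.3% in WT, on the side of cdr-6. A summit at least as far from the middle was found in 4.75% of daf-2(-) peaks and 9.67% of WT peaks. At its other end the peak spanned the 923 bp between cdr-6 and the cdr-2 gene model and reached 291 bp into that model in daf-2(-) and 270 bp in WT, at the end of the gene where transcription stops.

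At cdr-2 (WBGene00008296, gene model 12414622 to 12415711), a peak was present in daf-2(-) and absent from the WT list. It lay at chrV:12415584-12416091, with the summit 119 bp upstream of the TSS, and held 53 tags (95% interval 39.7 to 69.3). The height was 46, the fold enrichment 5.59 and the FDR 0.14%, close to the highest FDR in that list, 0.15%. With 508 bp it was among the shortest daf-2(-) peaks, at percentile 1.5 of length. Its height was at percentile 34.1 of the daf-2(-) list, and at percentile 60.5 among the 2015 daf-2(-) peaks that overlapped no WT peak, whose median height was 42.

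The WT list had no peak over the cdr-2 promoter. The nearest WT peak was that of cdr-6, which ended 692 bp before the daf-2(-) interval began, and the next on the other side was 33729 bp away. A height of 46 or less was found in 3.26% of WT peaks, against 35.2% of daf-2(-) peaks, and the lowest height listed was 21 in daf-2(-) and 32 in WT. Whether this difference between the lists bears on the missing WT peak was not tested.

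The 3 genes with a peak in both strains had it at the same place. Each daf-2(-) peak overlapped 1 WT peak and no other, and 100% of the shorter interval was shared at mtl-1 and cdr-4, and 98.4% at cdr-6. Of all WT peaks, 87.4% overlapped a daf-2(-) peak, and of all daf-2(-) peaks, 70.6% overlapped a WT peak. The summits lay 18 bp apart at mtl-1, 15 bp at cdr-4 and 25 bp at cdr-6. Over all 4717 pairs, each of a WT peak and the overlapping daf-2(-) peak with the nearest summit, the median distance was 37 bp.

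Heights were then set against each other as the log2 ratio of daf-2(-) over WT. Over all shared pairs the median of this ratio was -0.53, with quartiles of -0.77 and -0.29, so a ratio is read here against that shift. The heights have no common scale, so the shift cannot be read as less binding in daf-2(-). The study scaled its read counts to mapped reads, subtracted input and applied quantile normalization. On that scale it reported average peak heights that increased in daf-2(-), at coding genes bound in both strains. A height of at least 1.5-fold less in daf-2(-) was found in 43.9% of pairs, and of at least 1.5-fold more in 0.572%. Of the 3 genes, cdr-6 passed the first limit and none passed the second. Relative to the median of all pairs these calls changed, since cdr-6, at -0.37, no longer passed and mtl-1, at 0.68, did (the limit is 0.585 on the log2 scale). On that scale 5.81% of pairs were at least 1.5-fold lower in daf-2(-), and 4.96% were at least 1.5-fold higher.

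At mtl-1 the ratio was 0.15 (counting interval -0.19 to 0.49), at percentile 97.0 of all pairs, and the heights were 1.11-fold apart. A summit taller in daf-2(-) by any amount was found in 6.17% of pairs. The unscaled sign at mtl-1 depended on the measure. The log2 ratio was -0.09 by fold enrichment and -0.06 by tags per kb of peak, and the interval by height holds both signs. Over all pairs the median was -0.39 by fold enrichment and -0.42 by tags per kb, so mtl-1 lay above the median by each measure. By fold enrichment, mtl-1 stood at percentile 79.3 of pairs. The local background, which is the height divided by the fold enrichment, was 9.19 tags in daf-2(-) and 7.82 in WT.

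At cdr-4 the log2 ratio of heights was -0.49 (counting interval -0.95 to -0.04), at percentile 54.2, and relative to the median of all pairs it was 0.04. The cdr-4 peak thus differed between the strains by about as much as the typical shared peak, and its sign turned once that shift was taken off. At cdr-6 the log2 ratio was -0.90 (counting interval -1.45 to -0.38), at percentile 14.8, an unscaled height 1.87-fold higher in WT. It was -0.79 by fold enrichment, at percentile 14.8, and -0.64 by tags per kb, beside medians of -0.39 and -0.42 over all pairs. By tags the log2 ratio at cdr-6 was -0.68, at percentile 37.6, beside a median of -0.56. The counting intervals of mtl-1 and cdr-6 did not overlap, whereas that of cdr-4 overlapped both. The local background at cdr-4 was 7.78 tags in daf-2(-) and 8.43 in WT, and at cdr-6 it was 7.59 in daf-2(-) and 8.21 in WT.

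**Figure D3:**
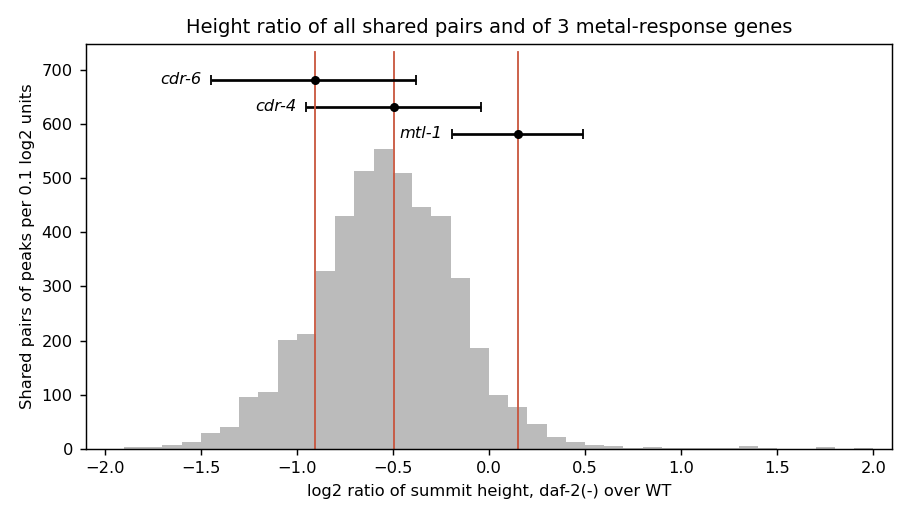
Number of shared pairs of peaks in bins of the log2 ratio of summit height, daf-2(-) over WT, for all 4717 pairs (grey), with red lines and black points for the 3 genes and bars for their counting 95% intervals. The value at mtl-1, 0.15, is to the right of most pairs, cdr-4 at -0.49 is near the median of -0.53, and cdr-6 at -0.90 is in the lower part.

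To place these genes among others that handle metals, 27 genes of metal detoxification, transport, storage and its control were counted. Of these, 10 (37%) had a peak in daf-2(-) and 10 (37%) in WT, 8 of them in both, beside 18.0% of all protein-coding genes in daf-2(-) and 15.0% in WT. The list was chosen with earlier results known, and the shares are a description. Both strains had peaks at the ferritin genes ftn-1 and ftn-2, which store iron, at the zinc transporter genes cdf-1 and cdf-2, and at cua-1, a copper-transporting ATPase gene. Both also had peaks at vhp-1, a phosphatase gene of the stress-kinase pathway for heavy metals, and at the transcription factor genes elt-2 and skn-1. By symbol, mrp-1, a transporter gene, and aip-1, a gene induced by arsenite, had a peak in daf-2(-) and none in WT, although a WT peak assigned to F58E10.3 overlapped that of aip-1. The transporter genes pgp-1 and pgp-3 had a peak in WT and none in daf-2(-). The other 15 had none in either strain, among them pcs-1, the phytochelatin synthase gene, and hmt-1, a transporter gene for cadmium tolerance.

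Of these genes, vhp-1 (chromosome II), ftn-1 (chromosome V) and skn-1 (chromosome IV) had the tallest peaks. The tallest vhp-1 peak was 129 high in daf-2(-), from 5337919 to 5338979, and 247 high in WT, from 5333548 to 5338985. The WT interval overlapped a daf-2(-) peak of height 193 that was assigned to the gene F08B1.8, and that peak had the nearest summit. At ftn-1 the height was 99 in daf-2(-) and 151 in WT, and the peak was centred 100 bp past the TSS in daf-2(-) and 56 bp past it in WT. At skn-1 the shared peak was 91 high in daf-2(-) and 135 high in WT.

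There were 12 shared pairs of peaks assigned to these metal genes in either list, and all 12 were lower in daf-2(-) by height, as were 93.4% of all pairs. Their median log2 ratio was -0.47, beside -0.53 over all pairs. Several of the 12 pairs were assigned to vhp-1, so they cover fewer than 12 genes. The pairs at cdf-2 and cdf-1 had summits 1348 and 372 bp apart, so their heights are read at different places.

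**Figure D4:**
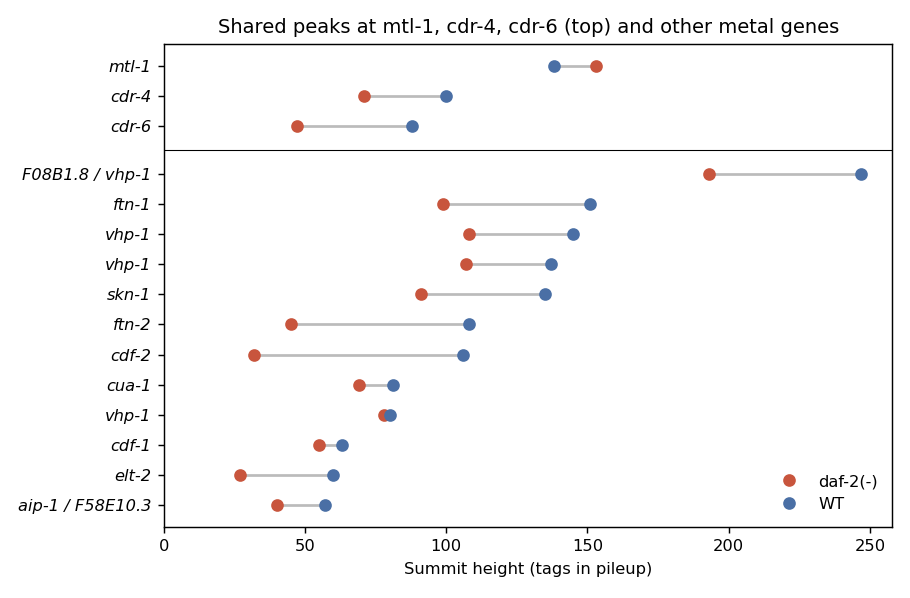
Summit height in tags of shared peaks at mtl-1, cdr-4 and cdr-6 (above the line) and at the other metal genes (below it), daf-2(-) in red and WT in blue, 1 library each, where a slash parts the genes assigned in daf-2(-) and in WT. The daf-2(-) point is to the left of the WT point at all 12 other pairs and at cdr-4 and cdr-6, and to the right at mtl-1.

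The shared peaks most like mtl-1 in height in both strains, by distance in log2 units over 2 libraries, were at DY3.9 on chromosome I (153 in daf-2(-) and 136 in WT, distance 0.021), Y47D3A.14 on chromosome III (154 in daf-2(-) and 140 in WT, distance 0.023) and ZK742.4 on chromosome V (161 in daf-2(-) and 135 in WT, distance 0.080).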

How the data were processed

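The members and gene lists were chosen with earlier results of these data known. All 9 genes are named. Other metal genes are named where they had a peak, with values for the 3 tallest. The groups follow the sample titles, and the strain of each peak list follows its deposited name and the study's methods.

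The authors converted reads with CASAVA 1.8.2, trimmed them with Cutadapt, aligned them to WS230 with Bowtie 0.12.7, and ran MACS 1.4.2 on the unique alignments of each ChIP library against its input at an FDR limit of 5%. Peaks were assigned to the nearest TSS. The methods do not mention removal of peaks shared with the DAF-16-null strains, which is stated in the study's index of its datasets. The deposited lists give the count of tags inside each peak, as whole tags that were not scaled. The deposited height is the pileup signal at the summit. The deposited fold enrichment divides the summit by the local background, a ratio that MACS gives. That background is taken here as the input, since the study describes its daf-2(-) peaks as input-normalized. The deposited names of the lists say normalized with daf-16(-);daf-2(-) for daf-2(-) and with daf-16(-) for WT. The FDR was deposited as a percent. A MACS p-value score deposited for daf-2(-) was not used. A table of tag density has 1 value column that names no sample, and it was not used.

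Here, peaks were called shared when they overlapped by at least 1 bp, and each WT peak was paired with the overlapping daf-2(-) peak of the nearest summit. A difference in height was called from 1.5-fold. Tags have exact Poisson 95% intervals. Ratios of heights have exact conditional binomial 95% intervals, which treat the pileup as a count. The deposited distances run from the peak centre, and summit distances were computed. The RefSeq table (WBcel235) gave names, biotypes and gene order, and matched 8 of the 9 symbols. Exon and UTR annotation of the files' build was not used. The FOXO motif search and the protein comparison that were planned were not run, since no promoter or protein sequences were used here. The pairing step was tested on simulated data in which each peak had at most 1 possible partner. The choice by nearest summit was therefore not tested. Tools were pandas 2.3.3, matplotlib 3.10.9, scipy 1.17.1 and numpy 2.4.6 under Python 3.11.15.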

Additional observations from a re-analysis of the deposited data

How the results depend on the processing

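Of 26 alternative values, 19 stayed within the limits set for them, 7 moved outside and 0 reversed a difference of 1.5-fold or more. A fold enrichment of 10 or more left 1 gene with a peak in daf-2(-), mtl-1, and 3 in WT. The median fold enrichment of all peaks was 7.24 in daf-2(-) and 10.5 in WT, on either side of that limit. A centre within 0.5 kb upstream of the TSS left 2 genes in daf-2(-) and 1 in WT. Of all peaks, 36.8% in daf-2(-) and 36.3% in WT had their centre in that window. With the summit in place of the centre, chosen after seeing the data, 3 were left in daf-2(-) and 2 in WT, since the cdr-6 summit lies nearer the TSS than its centre. Relative to the median of all shared pairs, the log2 height ratio was 0.68 at mtl-1, 0.036 at cdr-4 and -0.37 at cdr-6, by construction of that scale, so the 1.5-fold call at cdr-6 was lost and mtl-1 passed the limit. The difference at mtl-1, which is under 1.5-fold, turned negative by fold enrichment (-0.09) and by tags per kb (-0.06). Both values stayed above the medians of all pairs, -0.39 by fold enrichment and -0.42 by tags per kb. As a difference of the percentile of height within each list, daf-2(-) minus WT, the values were 14.8 percentage points at mtl-1, 7.67 at cdr-4 and -11.6 at cdr-6. An FDR limit of 1%, the wider window and other overlap rules left these counts as they were. The FDR limit could not have changed the daf-2(-) count, since no peak of that list had an FDR above 0.15%. Motif alternatives could not be run without promoter sequences. No paired analysis was possible because replicate numbers are lacking, with 1 ChIP and 1 input library per strain. Peaks of few tags, such as the 53 at cdr-2, limit what these values can show.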

Other observations

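Near mtl-2, a peak was given to different genes in each strain. In daf-2(-) it ran from 14011938 to 14012664 on chromosome V, was 40 high with 61 tags (95% interval 46.7 to 78.4), and was assigned to aip-1, with its centre 32 bp upstream of that TSS. The WT peak that overlapped it over 700 bp ran from 14011753 to 14012637, was 57 high with 120 tags (99.5 to 144), and was assigned to F58E10.3. The summits lay 82 bp apart. The difference between the lists at aip-1 by symbol is thus a difference of assignment, while both strains had a peak at this place.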
